A study of Caenorhabditis elegans with 15 samples.

Results

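Argonaute proteins carry small RNAs, which guide them to complementary transcripts. Depending on the Argonaute, the target is silenced, cleaved, repressed or, in the case of CSR-1, licensed for expression. Caenorhabditis elegans has an expanded Argonaute family, in which some members act mainly in the germline and others mainly in the soma. The 10 Argonaute genes described here were chosen by name from the 46934 gene IDs of the deposited table. They are the germline genes prg-1, csr-1, wago-1 and hrde-1, the oocyte and embryo gene ergo-1, the spermatogenesis genes alg-3 and alg-4, the microRNA Argonautes alg-1 and alg-2, and rde-1 of exogenous RNA interference. Their names come from the selection list, which pairs each name with a WormBase ID.

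The mRNAs of these genes were measured in RNA bound to 2 eIF4E paralogs, IFE-1 and IFE-3. The eIF4E proteins bind the cap of mRNAs and bring them to the translation machinery, and IFE-1 is known from germ granules. Strain KX155 carried mKate::ife-1 on chromosome III and GFP::ife-3 on chromosome V, both made by CRISPR. From this strain came IFE-1 RIP (RNA on the RFP trap), IFE-3 RIP (RNA on the GFP trap) and total RNA of the unenriched lysate. Strain LP307 (mKate::PH, chromosome II insertion) gave the mKate control RIP on the RFP trap, and strain LP306 (GFP::PH, chromosome II insertion) gave the GFP control RIP on the GFP trap. No tagged eIF4E gene is listed for the control strains, which thus differ from KX155 in strain as well as in the bound protein. All worms were grown for 3 days at 20 °C and taken whole. Each of the 5 groups held 3 libraries, called biological replicates in the labels. The sex and stage of the worms and the promoter of the tag-only insertions were not stated in the labels. By the design text, the submitters set the tag-only RIPs aside for their poor representation of mRNA.

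Values are TPM, a length-corrected transcript abundance with the same total in each library, divided by a scaling factor per library that set the median gene equal across libraries (scaled TPM). The factors ran between 0.713 and 1.36, and 10066 to 14306 genes reached 1 TPM per library. Total RNA had factors of 0.713 to 0.818 and the pull-downs of 0.875 to 1.36, so scaling lowered pull-down values relative to total RNA. In each library the 10 highest genes held 57.8% to 76.0% of all TPM. Sequencing depth is unknown. The coefficient of variation was highest in the GFP control RIP for all 10 mRNAs, and its replicate 3 was the lowest of that group for 8 of them. In bulk RNA of whole worms, fewer cells of a type and less RNA per cell cannot be told apart. Markers of sperm, oocytes or soma could not be matched to the IDs, so the share of these cells in each strain was not tested.

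All 10 genes are annotated as protein-coding in WBcel235. Of the germline genes, prg-1 (WBGene00004178, D2030.6) spans 7585329 to 7588367 and wago-1 (WBGene00011061, R06C7.1) spans 7235384 to 7238792 on chromosome I, csr-1 (WBGene00017641, F20D12.1) spans 7957267 to 7962157 on chromosome IV, and hrde-1 (WBGene00007624, C16C10.3) spans 4172337 to 4176159 on chromosome III. The longest locus, ergo-1 (WBGene00019971, R09A1.1), covers 1008803 to 1018352 on chromosome V, where rde-1 (WBGene00004323, K08H10.7) covers 9987916 to 9991642. The sperm pair lies apart, with alg-3 (WBGene00011910, T22B3.2) at 11704246 to 11708264 on chromosome IV and alg-4 (WBGene00006449, ZK757.3) at 9887210 to 9891424 on chromosome III. The microRNA pair is also split, with alg-1 (WBGene00000105, F48F7.1) at 13949489 to 13956261 on chromosome X and alg-2 (WBGene00000106, T07D3.7) at 873212 to 879885 on chromosome II. The loci of prg-1, csr-1 and ergo-1 each overlap 1 other protein-coding gene and that of alg-2 overlaps 3 noncoding RNA genes, while the other 6 overlap no annotated gene. The libraries were not strand-specific, so reads from the overlapping stretches could not be separated by strand. The pairs alg-1 with alg-2 and alg-3 with alg-4 are close paralogs, and how reads common to both were divided is not known. Of the 10 genes, 0 had values identical to another gene in all libraries.

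In total RNA the germline Argonautes were the most abundant of the 10. The mean level was 36.6 ± 4.09 scaled TPM for wago-1, 30.8 ± 3.22 for csr-1, 29.5 ± 2.00 for hrde-1 and 23.0 ± 2.50 for prg-1 (SD, n = 3 each). Libraries of wago-1 and csr-1 overlapped, as did those of csr-1 and hrde-1, whereas all hrde-1 values lay above all prg-1 values. A middle tier held ergo-1 at 11.996 ± 0.937, alg-2 at 11.4 ± 1.46 and alg-1 at 9.76 ± 0.716 scaled TPM (SD, n = 3 each), and each of these overlapped its neighbour in the order. The lowest tier was alg-3 at 4.94 ± 0.318, rde-1 at 4.62 ± 0.458 and alg-4 at 4.62 ± 0.265 (SD, n = 3 each), which overlapped one another in that order. The highest-ranked gene was wago-1 in the IFE-1 RIP, GFP control RIP and total RNA, and hrde-1 in the IFE-3 RIP and mKate control RIP, but in each group the first 2 overlapped. By mean level csr-1 was at rank 4 in the IFE-1 RIP, IFE-3 RIP and mKate control RIP and at rank 3 in the GFP control RIP, against rank 2 in total RNA. Its libraries overlapped those of prg-1, next to it in rank, in the IFE-1 RIP and both control RIPs, but not in the IFE-3 RIP.

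**Figure D1:**
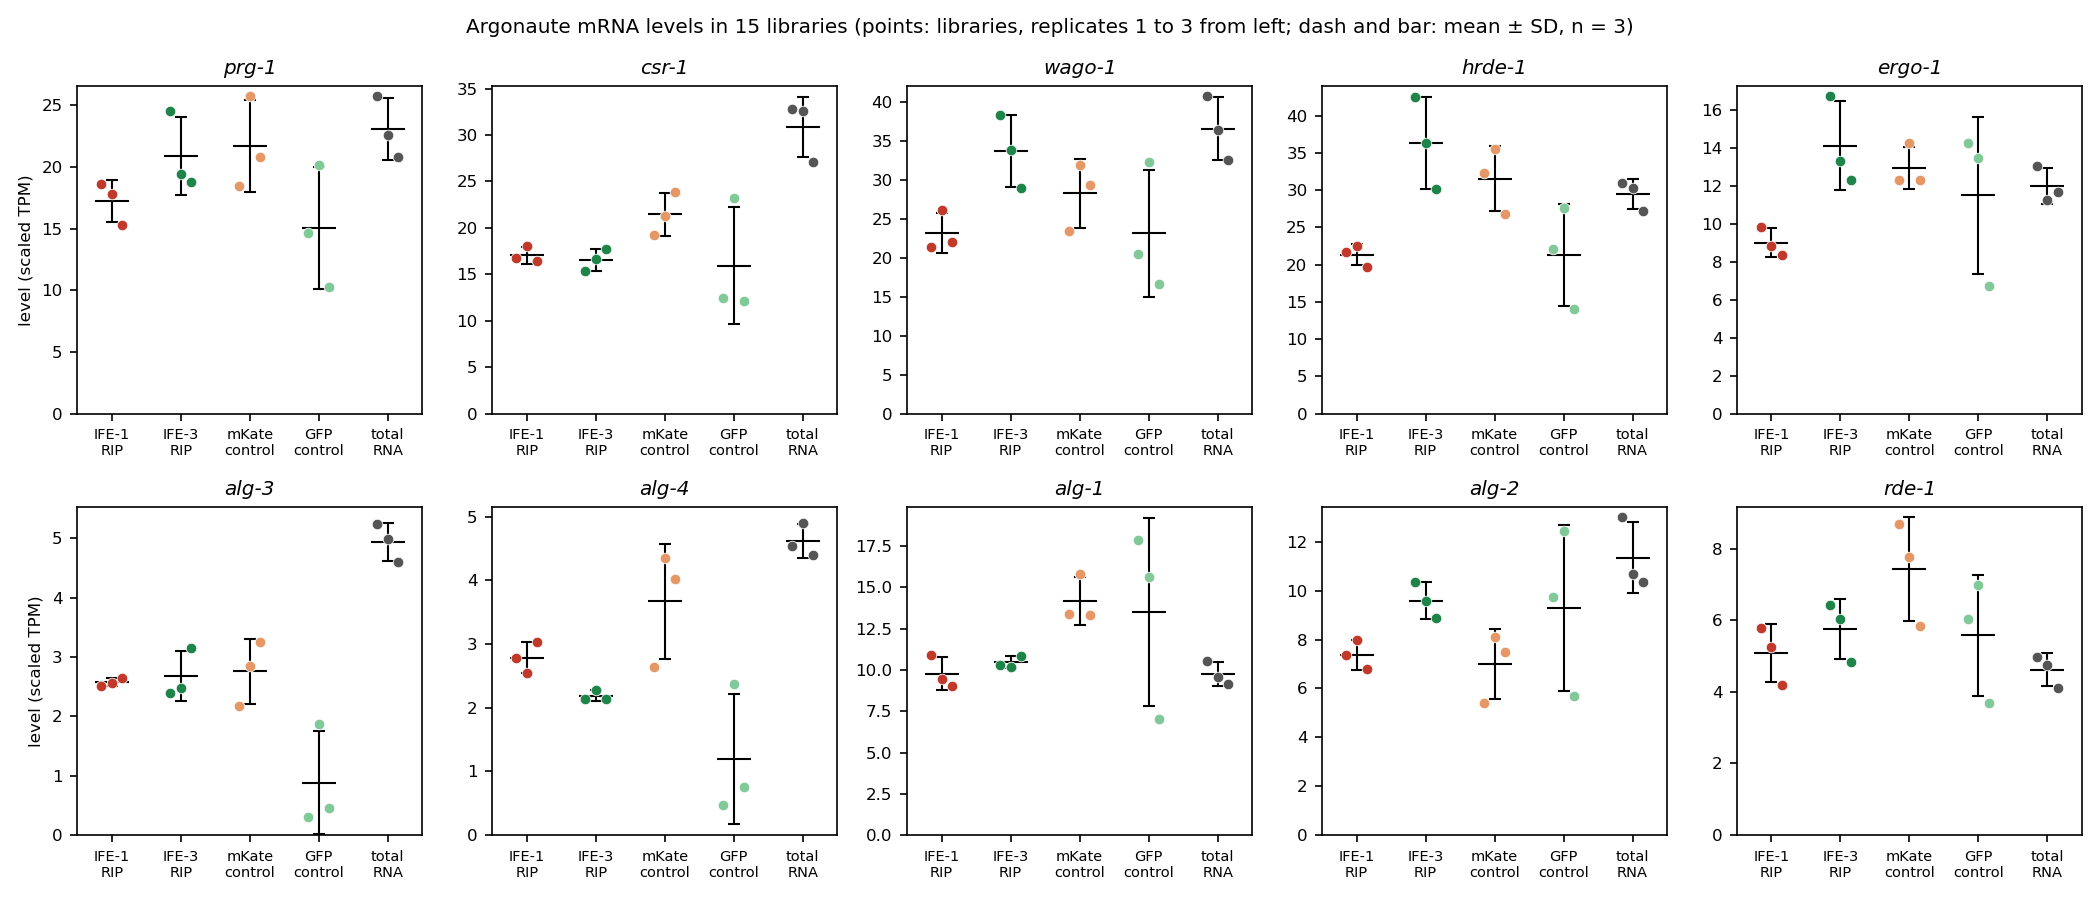
Level of each Argonaute mRNA in scaled TPM (linear axis from 0, with its own range per gene) in the IFE-1 RIP, IFE-3 RIP, mKate control RIP, GFP control RIP and total RNA; points are libraries, dashes means and bars SD (n = 3). The csr-1, alg-3 and alg-4 points of both IFE RIPs lie below all total RNA points, and hrde-1 lies between 30.1 and 42.6 in the IFE-3 RIP, above all IFE-1 RIP points.

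Which Argonaute mRNAs were bound with IFE-1 was addressed by setting its RIP against total RNA of the same strain. Of the 10 mRNAs 5 fell and 0 rose: csr-1, alg-3, wago-1, alg-4 and alg-2. Among all 12099 genes tested, 10.2% were called at an adjusted p under 0.05, 4.12% higher and 6.07% lower. The median log2 fold change was -0.50 over the 10 mRNAs, against -0.01 over all genes tested. For 8 of the 10 every IFE-1 RIP library was below every total RNA library, where 32.7% of all genes had no overlap in either direction. IFE-3 RIP was set against the same total RNA libraries, so the values for both RIPs given below share them. In that comparison 3 mRNAs fell and 0 rose, namely csr-1, alg-3 and alg-4, and the same 3 were the ones without overlap under the scaling factors of the fit. Of all genes 11.2% were called, 5.58% higher and 5.63% lower, and 31.3% did not overlap. The median over the 10 mRNAs was -0.12, against 0.03 over all genes.

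CSR-1 binds small RNAs antisense to most germline-expressed genes and is required for fertility. Its mRNA stood at 16.7, 18.1 and 16.4 scaled TPM in the IFE-1 RIP (replicates 1, 2 and 3 in order, here and below), at 15.3, 16.6 and 17.7 in the IFE-3 RIP, and at 32.8, 32.6 and 27.1 in total RNA. All 6 RIP libraries lay below all total RNA libraries. The log2 fold change over total RNA was -0.81 ± 0.11 (SE, limma adjusted p = 0.00437) for IFE-1 RIP and -0.85 ± 0.11 (SE, limma adjusted p = 0.00527) for IFE-3 RIP. The control traps held less csr-1 than total RNA too, at 19.2, 21.2 and 23.9 in the mKate control RIP and 12.4, 23.2 and 12.2 in the GFP control RIP. These groups also did not overlap with total RNA, but neither control passed the test, with log2 fold changes of -0.49 ± 0.14 (SE, limma adjusted p = 0.0576) and -0.97 ± 0.27 (SE, limma adjusted p = 0.161), and the mKate value turned to 0.036 on TPM as deposited. Libraries left at the deposited TPM gave -0.53 in the IFE-1 RIP and -0.53 in the IFE-3 RIP, both still called. With all 15 libraries in a single fit csr-1 was not called, with limma adjusted p of 0.0680 in the IFE-1 RIP and 0.0525 in the IFE-3 RIP.

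ALG-3 and ALG-4 act together in spermatogenesis, where they bind small RNAs made from genes of the male germline. Low in every group, alg-3 stood at 2.51, 2.57 and 2.64 scaled TPM in the IFE-1 RIP, at 2.40, 2.48 and 3.16 in the IFE-3 RIP and at 5.23, 4.98 and 4.60 in total RNA. Values of alg-4 were 2.78, 2.54 and 3.03 in the IFE-1 RIP, 2.14, 2.29 and 2.14 in the IFE-3 RIP, and 4.54, 4.91 and 4.396 in total RNA. For both genes each RIP library was below each total RNA library. In the IFE-1 RIP the log2 fold change was -0.72 ± 0.10 for alg-3 and -0.56 ± 0.09 for alg-4 (SE, limma adjusted p = 0.00595 and 0.00959). In the IFE-3 RIP it was -0.67 ± 0.10 for alg-3 and -0.79 ± 0.09 for alg-4 (SE, limma adjusted p = 0.00899 and 0.00372). The pseudocount of 1 used before taking logs understates changes at such levels, and with a pseudocount of 0.1 they were -0.91 and -0.71 in the IFE-1 RIP, and -0.86 and -1.03 in the IFE-3 RIP, in the same gene order. The alg-4 call in the IFE-1 RIP was lost with TPM as deposited, at -0.33 (limma adjusted p = 0.0817), and none of the sperm pair's calls in either RIP remained with all 15 libraries in a single fit (limma adjusted p between 0.105 and 0.279).

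The sperm pair was lowest in the GFP control RIP, where the libraries disagreed. In its replicates 1, 2 and 3, alg-3 stood at 0.312, 1.88 and 0.457 scaled TPM and alg-4 at 0.472, 2.37 and 0.750. Replicate 2 was the highest for both, yet below every total RNA library. The log2 fold change of GFP control RIP over total RNA was -1.74 ± 0.31 for alg-3 and -1.44 ± 0.31 for alg-4 (SE, limma adjusted p = 0.0652 and 0.104), so neither was called. Without GFP control RIP replicate 2, csr-1, alg-3 and alg-4 were called lower, with alg-3 at -2.04 and alg-4 at -1.76. That fit called 4.66% of all genes. In the mKate control RIP alg-3 stood at 2.17, 2.85 and 3.25 and fell relative to total RNA (log2 difference -0.65 ± 0.14 SE, limma adjusted p = 0.0309), but with TPM as deposited it was at -0.23 and not called (limma adjusted p = 0.225). The mKate control RIP held alg-4 at 2.65, 4.35 and 4.03 (log2 difference from total RNA -0.27 ± 0.16 SE, limma adjusted p = 0.283, and 0.16 without scaling).

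WAGO-1 binds secondary small RNAs in the cytoplasm of germ cells, and HRDE-1 carries such RNAs into germ cell nuclei and is required for inherited silencing. The hrde-1 mRNA stood at 21.6, 22.5 and 19.7 scaled TPM in the IFE-1 RIP, at 42.6, 36.3 and 30.1 in the IFE-3 RIP and at 30.9, 30.3 and 27.2 in total RNA. IFE-1 RIP was below all libraries of both other groups, while IFE-3 RIP overlapped with total RNA in its replicate 3 alone. Of the 10 mRNAs, hrde-1 was the 1 called between the RIPs, with IFE-1 RIP at -0.74 ± 0.13 relative to IFE-3 RIP on the log2 scale (SE, limma adjusted p = 0.0431). Of all 12099 genes 1.52% were called in this comparison, 0.124% higher and 1.40% lower in the IFE-1 RIP. Groups did not overlap for 6 of the 10 mRNAs, of which alg-4 alone was higher in the IFE-1 RIP, and for 20.6% of all genes. The median was -0.21 over the 10 mRNAs, against 0.02 over all genes. Against total RNA hrde-1 was called in neither RIP, at -0.45 ± 0.13 in the IFE-1 RIP and 0.29 ± 0.13 in the IFE-3 RIP (SE, limma adjusted p = 0.0693 and 0.211). The IFE-1 RIP value was -0.17 with TPM as deposited (limma adjusted p = 0.426), and with only the 6 libraries compared it was -0.44 and called (limma adjusted p = 0.0438).

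The call of hrde-1 between the RIPs was not firm. It was lost in 9 of 13 other settings, including each fit without 1 library except that without IFE-3 RIP replicate 3, and the limma adjusted p ranged from 0.0122 to 0.163. The log2 fold change lay between -0.87 and -0.62 in these settings. Libraries of the same number deviated together in both RIPs and were taken as pairs. The main fit and the fits without 1 library did not use these pairs. With the replicate block hrde-1 (limma adjusted p = 0.0322) and ergo-1 (limma adjusted p = 0.0322) were called, so the count was 2 in place of 1. This fit, whose block also took in the total RNA libraries, called 532 of 12099 genes.

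For wago-1 the values were 21.5, 26.1 and 22.0 scaled TPM in the IFE-1 RIP, 38.3, 33.9 and 29.1 in the IFE-3 RIP and 40.8, 36.4 and 32.7 in total RNA. IFE-1 RIP was below all libraries of both other groups, as for hrde-1. It fell relative to total RNA (log2 difference -0.64 ± 0.14 SE, limma adjusted p = 0.0238), whereas IFE-3 RIP was at -0.11 ± 0.14 (SE, limma adjusted p = 0.669) and at 0.21 without scaling. The difference between the RIPs, -0.53 ± 0.14 on the log2 scale, did not pass the test (SE, limma adjusted p = 0.0991). Deposited TPM without scaling put wago-1 at -0.36 in the IFE-1 RIP, no longer called (limma adjusted p = 0.120), and with 1 library left out the call held in 2 of 6 fits. Both control RIPs also lay below all total RNA libraries for wago-1, though neither was called. The log2 differences were -0.36 ± 0.16 for the mKate control RIP and -0.69 ± 0.26 for the GFP control RIP (SE, limma adjusted p = 0.164 and 0.273). IFE-1 RIP overlapped with the mKate control RIP (log2 difference -0.27 ± 0.16 SE, limma adjusted p = 0.320).

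PRG-1 is the PIWI protein that binds piRNAs and guards the germline against foreign sequences. The prg-1 mRNA stood at 18.6, 17.8 and 15.3 scaled TPM in the IFE-1 RIP, 24.5, 19.4 and 18.7 in the IFE-3 RIP and 25.7, 22.6 and 20.8 in total RNA. All IFE-1 RIP libraries were below those of the other KX155 groups, but neither comparison with total RNA passed the test. The log2 fold change over total RNA was -0.40 ± 0.14 in the IFE-1 RIP and -0.13 ± 0.14 in the IFE-3 RIP (SE, limma adjusted p = 0.104 and 0.595), and without scaling they were -0.12 in the IFE-1 RIP and 0.18 in the IFE-3 RIP.

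ERGO-1 binds small RNAs of oocytes and embryos, many of which match duplicated genes. Its mRNA stood at 9.85, 8.83 and 8.35 scaled TPM in the IFE-1 RIP, 16.8, 13.3 and 12.3 in the IFE-3 RIP and 13.1, 11.3 and 11.7 in total RNA. IFE-1 RIP lay below all libraries of the other groups of its strain. The difference between the RIPs was -0.59 ± 0.13 on the log2 scale (SE, limma adjusted p = 0.0625), which missed the threshold without the replicate block. Over total RNA the log2 fold change was -0.38 ± 0.13 in the IFE-1 RIP and 0.22 ± 0.13 in the IFE-3 RIP (SE, limma adjusted p = 0.101 and 0.317), and the IFE-1 RIP value without scaling was -0.11.

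**Figure D2:**
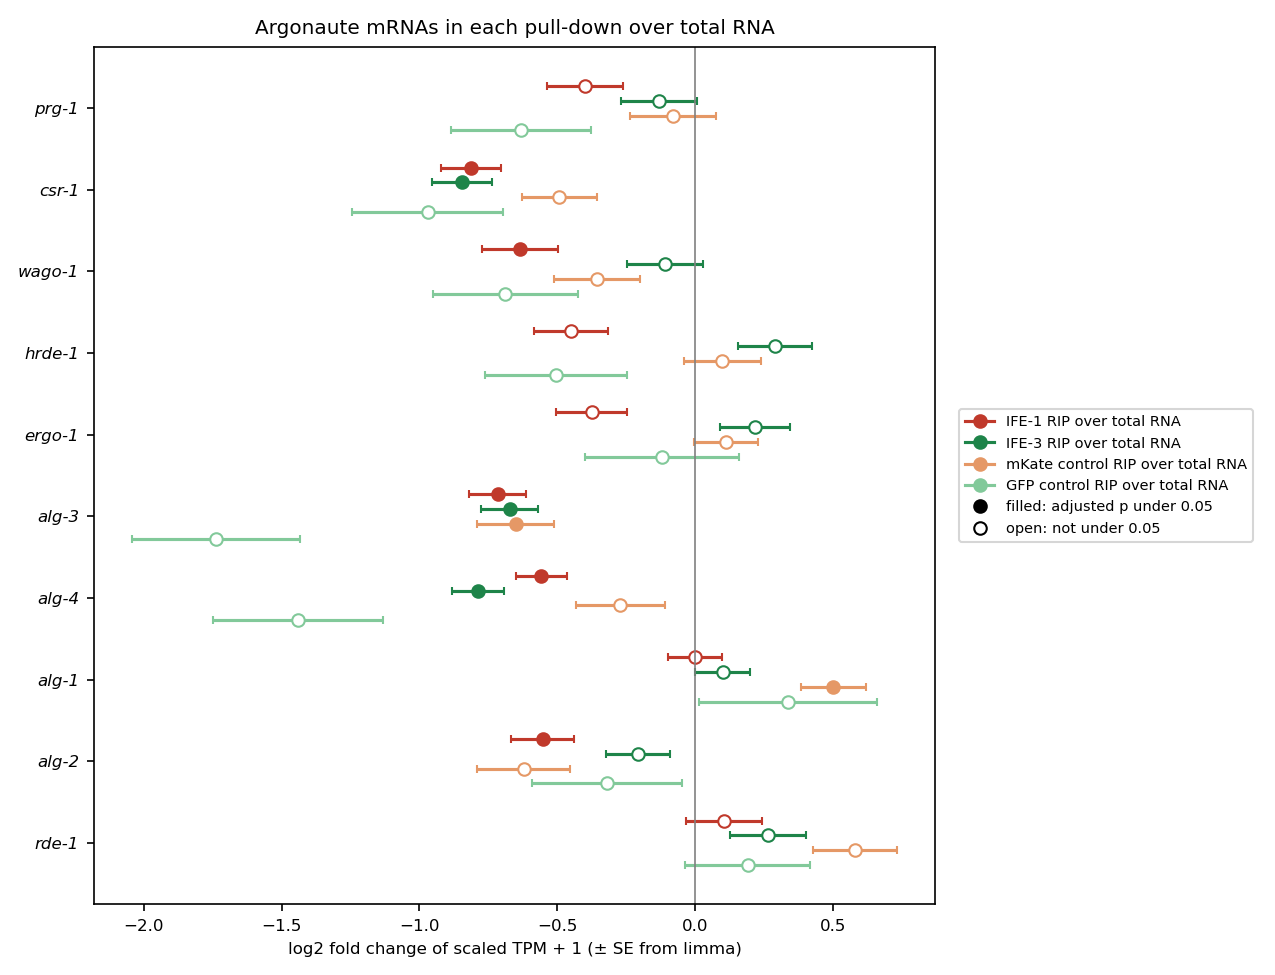
Log2 fold change (scaled TPM + 1, ± SE) of each Argonaute mRNA in the IFE-1 RIP, IFE-3 RIP, mKate control RIP and GFP control RIP over total RNA; filled points passed an adjusted p of 0.05. All 4 groups share the 3 total RNA libraries, and the prg-1, csr-1, wago-1, alg-2, alg-3 and alg-4 points lie below 0 in each. The alg-3 and alg-4 points of GFP control RIP lie furthest left, at -1.74 and -1.44.

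The microRNA Argonautes ALG-1 and ALG-2 have overlapping roles in the soma. At 10.9, 9.43 and 9.02 scaled TPM in the IFE-1 RIP, 10.3, 10.2 and 10.9 in the IFE-3 RIP and 10.5, 9.58 and 9.14 in total RNA, alg-1 overlapped between all 3 groups. Its log2 fold change over total RNA was 0.00 ± 0.10 in the IFE-1 RIP and 0.10 ± 0.10 in the IFE-3 RIP (SE, limma adjusted p = 1.0 and 0.574). In contrast, alg-2 fell in the IFE-1 RIP, at 7.35, 8.00 and 6.78 scaled TPM against 13.02, 10.7 and 10.4 in total RNA (log2 difference -0.55 ± 0.11 SE, limma adjusted p = 0.0196). In the IFE-3 RIP alg-2 stood at 10.3, 9.58 and 8.87, where the highest library was close to the lowest of total RNA and overlapped with it under the scaling factors of the 9-library fit (log2 difference -0.21 ± 0.11 SE, limma adjusted p = 0.290, and 0.092 without scaling). The alg-2 call in the IFE-1 RIP was lost with TPM as deposited, at -0.29 (limma adjusted p = 0.163), and held in 3 of 6 fits with 1 library left out. The mKate control RIP held alg-2 at 5.39, 8.12 and 7.49, all below total RNA (log2 difference -0.62 ± 0.17 SE, limma adjusted p = 0.0535). IFE-1 RIP over that control was at 0.08 ± 0.16 (SE, limma adjusted p = 0.758). The GFP control RIP overlapped with total RNA (log2 difference -0.32 ± 0.27 SE, limma adjusted p = 0.622).

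The mKate control RIP held more alg-1 than total RNA, at 13.4, 15.8 and 13.3 scaled TPM (log2 difference 0.50 ± 0.12 SE, limma adjusted p = 0.0378). On TPM as deposited this difference was 1.01. Along with alg-3 it was 1 of 2 mRNAs called in this comparison, where 14.2% of 11483 genes were called, 6.05% higher and 8.13% lower. Groups did not overlap for 7 of the 10, against 40.4% of all genes. Both calls were lost without mKate control RIP replicate 1 or 2, or without any 1 of the total RNA libraries. In GFP control RIP alg-1 stood at 17.9, 15.7 and 7.04, so its replicate 3 lay below every total RNA library and the others above (log2 difference from total RNA 0.34 ± 0.32 SE, limma adjusted p = 0.662). That comparison called 0.835% of 11615 genes, 0.370% higher and 0.465% lower. With limma 0 of the 10 mRNAs were called there, while 5 had an unadjusted p under 0.05, as had 1851 of the 11615 genes. Groups did not overlap for 5 of the 10, against 23.5% of all genes.

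RDE-1 takes up primary small RNAs made from double-stranded RNA that enters the worm. The rde-1 mRNA was at 5.79, 5.26 and 4.19 scaled TPM in the IFE-1 RIP, 6.43, 6.04 and 4.83 in the IFE-3 RIP, 8.71, 7.76 and 5.85 in the mKate control RIP, 6.05, 6.99 and 3.69 in the GFP control RIP and 4.98, 4.76 and 4.10 in total RNA. Of the 4 pull-downs, the mKate control RIP alone did not overlap with total RNA (log2 difference 0.58 ± 0.15 SE, limma adjusted p = 0.0507). In the IFE-1 RIP the log2 fold change over total RNA was 0.10 ± 0.14 and in the IFE-3 RIP 0.27 ± 0.14 (SE, limma adjusted p = 0.684 and 0.260). Without scaling, rde-1, ergo-1 and hrde-1 passed the test as higher in the IFE-3 RIP, at 0.53, 0.52 and 0.61 over total RNA (limma adjusted p = 0.0225, 0.0395 and 0.0145), with the median of all genes at 0.27.

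Each RIP was next compared with the tag control on the same trap, which sets RNA bound with the eIF4E against RNA bound to the trap or tag, apart from the difference in strain. With limma 0 of the 10 mRNAs were called in IFE-1 RIP over mKate control RIP. Of 12238 genes 0.474% were called, 0.311% higher and 0.163% lower. An unadjusted p under 0.05 was found for 4 of the 10 mRNAs and for 3357 of the 12238 genes. In the fit 9 of the 10 had a value below 0, and the groups did not overlap for csr-1, alg-1, rde-1, ergo-1 and hrde-1, each with IFE-1 RIP below the control, against 34.0% of all genes. The median was -0.31 over the 10 mRNAs and 0.01 over all genes. For hrde-1, IFE-1 RIP was at 21.6, 22.5 and 19.7 against 32.3, 35.5 and 26.8 scaled TPM in the mKate control RIP (log2 difference -0.53 ± 0.15 SE, limma adjusted p = 0.0956). These libraries were also taken as pairs, and with the replicate block hrde-1 (limma adjusted p = 0.0461) and rde-1 (log2 difference -0.47 ± 0.09 SE, limma adjusted p = 0.0469) were called lower in the IFE-1 RIP, in a fit that called 12.7% of all genes.

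In IFE-3 RIP over GFP control RIP, limma called 0 of the 10 mRNAs and 0.0898% of 12249 genes, 0.0653% higher and 0.0245% lower. Of the 12249 genes, 1534 had an unadjusted p under 0.05, among them 2 of the 10. These 2, hrde-1 and alg-3, were also those whose groups did not overlap, with IFE-3 RIP above the control, where 18.7% of all genes did not overlap. IFE-3 RIP stood at 42.6, 36.3 and 30.1 scaled TPM for hrde-1, against 22.1, 27.7 and 14.1 in the GFP control RIP (log2 difference 0.79 ± 0.30 SE, limma adjusted p = 0.329). For alg-3 the log2 fold change was 1.10 ± 0.35 (SE, limma adjusted p = 0.283), and without GFP control RIP replicate 2 it was 1.46 and called (limma adjusted p = 0.0333). The alg-3 value was 1.87 with a pseudocount of 0.1 and 0.43 with a pseudocount of 5, neither called. The median was 0.42 over the 10 mRNAs and 0.02 over all genes, and alg-1 alone had a value below 0. With TPM as deposited, csr-1, alg-2, rde-1 and ergo-1 changed sign in this comparison and had values below 0.

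**Figure D3:**
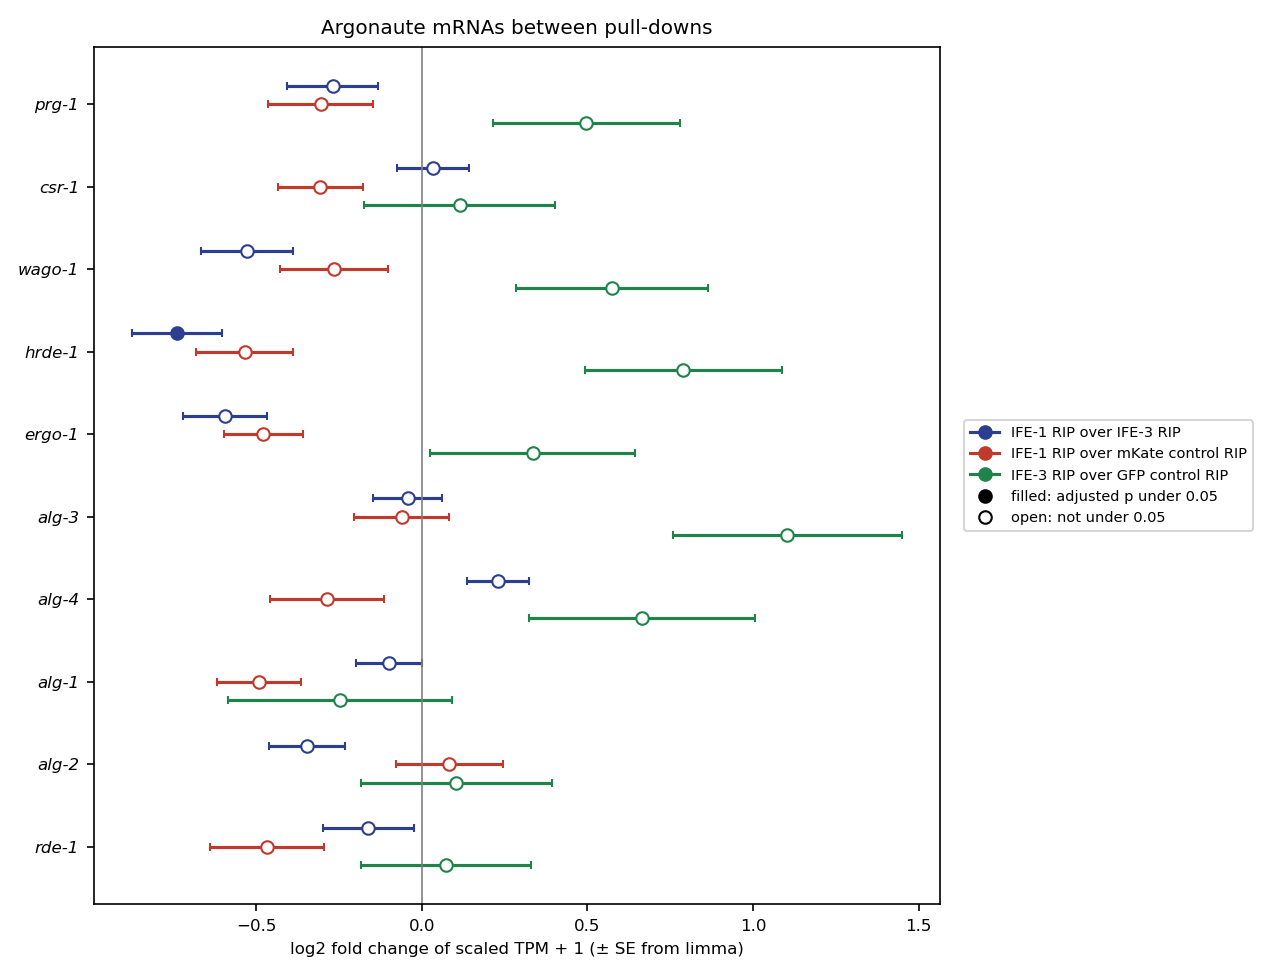
Log2 fold change (scaled TPM + 1, ± SE) of each Argonaute mRNA in IFE-1 RIP over IFE-3 RIP, IFE-1 RIP over mKate control RIP and IFE-3 RIP over GFP control RIP; filled points passed an adjusted p of 0.05. The hrde-1 point of IFE-1 RIP over IFE-3 RIP, at -0.74, is the only filled one, and the SE of IFE-3 RIP over GFP control RIP, up to 0.35, is the widest.

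The paralogs were also compared after each was set against its own tag control, in a single fit of all 15 libraries chosen with the values known. The log2 difference was -1.32 ± 0.30 for hrde-1 (SE, limma adjusted p = 0.0437), the only one of the 10 mRNAs called, where 2.21% of 14308 genes were called. With the replicate block this fit called 8.79% of all genes, and hrde-1 was again the only one of the 10 (limma adjusted p = 0.00737). The other mRNAs lay between -1.12 for alg-3 (limma adjusted p = 0.0955) and -0.02 for alg-2 (limma adjusted p = 0.983).

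Ratios between 2 Argonaute mRNAs in a library do not depend on the scaling factor. They were chosen after the values were seen and are given without a test. The TPM of hrde-1 over that of csr-1 was 1.30, 1.25 and 1.20 in the IFE-1 RIP, 2.78, 2.19 and 1.70 in the IFE-3 RIP, and 0.943, 0.928 and 1.00 in total RNA. All IFE-3 RIP libraries lay above all IFE-1 RIP libraries, and these above total RNA. The mKate control RIP was at 1.68, 1.67 and 1.12 and the GFP control RIP at 1.78, 1.19 and 1.16. The control traps thus also lay above total RNA, and GFP control RIP replicate 1 lay above IFE-3 RIP replicate 3. The ratio of wago-1 to csr-1 was 1.36 ± 0.0800 in the IFE-1 RIP, 2.06 ± 0.431 in the IFE-3 RIP and 1.19 ± 0.0660 in total RNA (n = 3 each, SD), and these 3 groups did not overlap. The mKate control RIP, at 1.32 ± 0.163, and the GFP control RIP, at 1.47 ± 0.160 (n = 3 each, SD), both overlapped with IFE-1 RIP. The GFP control RIP overlapped with IFE-3 RIP as well, with its replicate 1 at 1.66 and IFE-3 RIP replicate 3 at 1.64.

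Among the microRNA Argonautes, alg-1 over alg-2 was 1.33 ± 0.152 in the IFE-1 RIP, 1.10 ± 0.118 in the IFE-3 RIP, 2.07 ± 0.367 in the mKate control RIP, 1.44 ± 0.339 in the GFP control RIP and 0.863 ± 0.0475 in total RNA (n = 3 each, SD). All pull-down libraries, with and without an eIF4E, lay above all total RNA libraries. In the sperm pair alg-3 over alg-4 was 0.927 ± 0.0733 in the IFE-1 RIP, 1.23 ± 0.215 in the IFE-3 RIP, 0.761 ± 0.0909 in the mKate control RIP, 0.687 ± 0.0938 in the GFP control RIP and 1.07 ± 0.0715 in total RNA (n = 3 each, SD). Both control RIPs lay below all libraries of strain KX155 for this ratio.

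**Figure D4:**
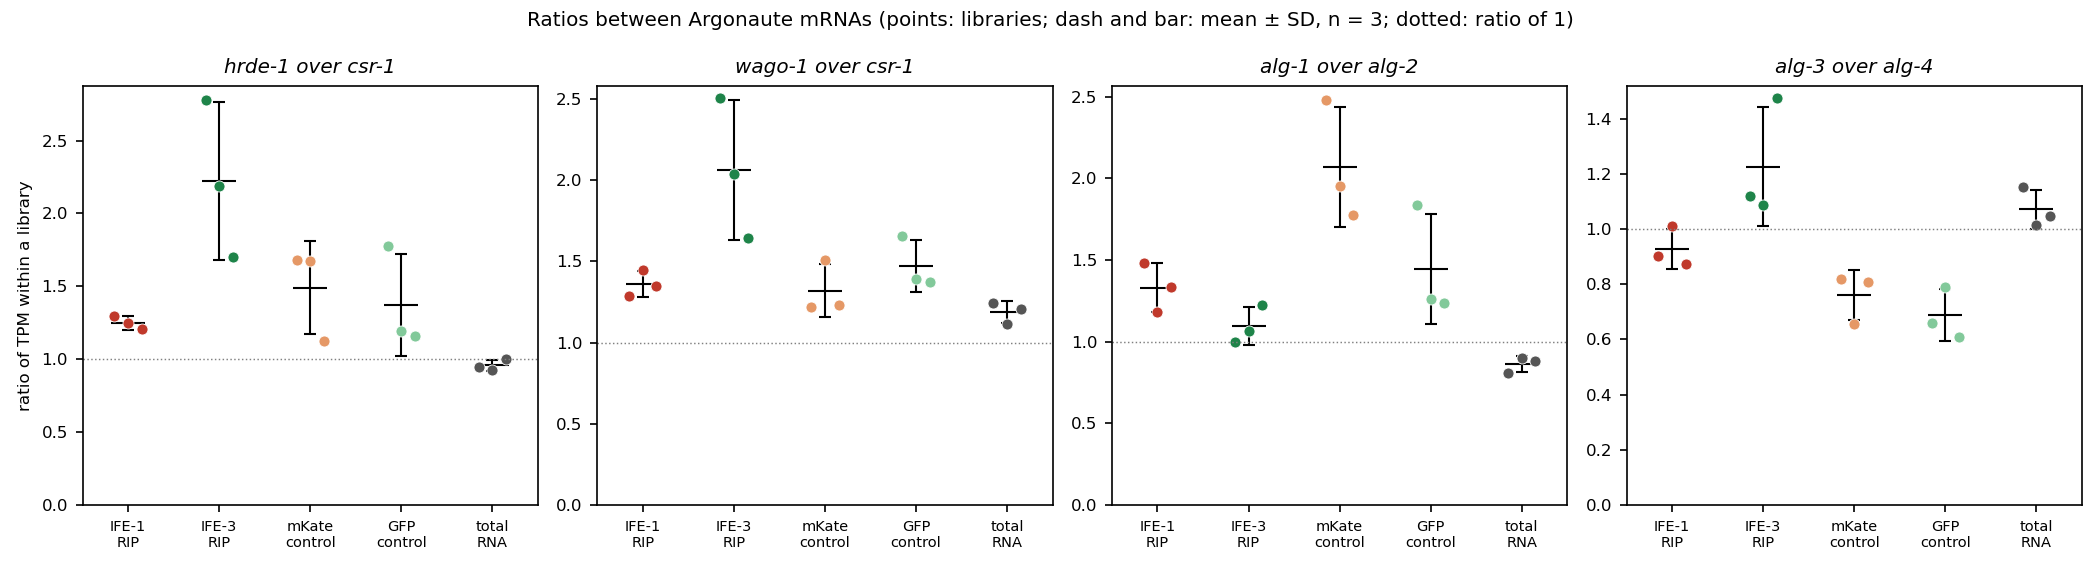
Ratio of the TPM of 2 Argonaute mRNAs within each library (linear axis from 0) for hrde-1 over csr-1, wago-1 over csr-1, alg-1 over alg-2 and alg-3 over alg-4; points are libraries, dashes means and bars SD (n = 3), and the dotted line marks a ratio of 1. For hrde-1 over csr-1 the IFE-3 RIP points, between 1.70 and 2.78, lie above all IFE-1 RIP and total RNA points. The highest GFP control RIP point, at 1.78, lies above the lowest IFE-3 RIP point.

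Likeness of pattern was measured as the root mean square difference of centred log2 values over the 15 libraries, compared with all genes that had a mean of at least 10 scaled TPM. The sperm genes alg-3 and alg-4 were each closer to the other, at 0.209, than to any of 3383 such genes. Both stood below that cut themselves. Genes at their own level were thus not compared, and whether any was closer is not known. The difference between prg-1 and wago-1 was smaller, at 0.154, but 26 genes were closer to prg-1 and 20 closer to wago-1. The smallest differences of all were those of rde-1 to WBGene00007048, at 0.0814, and of hrde-1 to WBGene00011376, at 0.0880, and neither ID is paired with a symbol in the tables used here. The median difference to all such genes was 0.483 for rde-1 and 0.498 for hrde-1. The mean of rde-1 was below the cut too, so genes at its own level were not compared with it.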

How the data were processed

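RNA of whole C. elegans was sequenced from rRNA-depleted, non-directional libraries, per the labels' protocols. The authors deposited 1 table of TPM per gene. Per the submitters' processing notes, which give no role or order, kallisto 0.48.0, R 4.4.1 and DESeq2 1.34.0 were used with build WBcel235. No source states the annotation or read filters. TPM keeps no depth, so no count test, counting interval or floor was used.

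Each library was divided by its median ratio to the gene's geometric mean, taken from genes detected throughout the fit. Printed levels use factors over all 15 libraries. A gene entered a fit when 3 or more of its libraries reached 1 TPM, and log2(scaled TPM + 1) was compared with limma 3.58.1 in R 4.3.3 (lmFit, eBayes with trend), two-sided, with Benjamini-Hochberg adjustment over all genes tested. All 10 Argonaute genes passed this filter in each fit. Comparisons within KX155 used a fit of 9 libraries and the other 4 a fit of 6. The fit was tested on simulated data.

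The rule for named genes took the 10 Argonaute genes and, for each, the gene of most similar pattern, of which at most 2 IDs without a symbol are printed. The genes and lists were chosen with earlier results of these data known. Lists of other Argonautes, small RNA pathway genes and cell type markers could not be applied, because 0 of 46926 genes in the reference table carry a WormBase ID. Gene positions are RefSeq's for WBcel235, matched by symbol for all 10.

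Replicate numbers were taken to pair libraries where all 3 same-numbered pairs deviated together from their group means, with a correlation over genes above 0.1. The lowest such correlation was 0.149 for IFE-1 RIP with IFE-3 RIP, 0.152 for IFE-1 RIP with mKate control RIP and 0.173 for IFE-3 RIP with GFP control RIP. Between unlike numbers the highest was 0.107, 0.133 and 0.0862 in the same order, the first 2 also above 0.1. Libraries of these comparisons were taken as paired on the values alone, which no label states. The lowest same-number correlation was 0.0346, 0.0552, -0.0157 and 0.0697 for IFE-1 RIP, IFE-3 RIP, mKate control RIP and GFP control RIP with total RNA. These comparisons with total RNA did not meet the rule, but the replicate block was still tried on them as a setting. The labelled batch is the trap or lysate, so outside the comparisons of each RIP with its tag control, batch and group cannot be told apart. Nothing in the labels says whether the libraries came from separate cultures, and p-values measure the spread between them. Other pseudocounts (0.1 and 5), no filter, TPM as deposited, a replicate block, only the 6 libraries compared, each library left out in turn and, added after the data were seen, all 15 libraries in a single fit were tried. The difference of both RIPs after each was set against its control was fitted with and without a replicate block.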

Additional observations from a re-analysis of the deposited data

Results flagged for a closer look

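The difference between the paralogs in hrde-1 was taken up because the test of the difference itself passed the threshold. The effects over total RNA were -0.45 ± 0.13 for IFE-1 RIP and 0.29 ± 0.13 for IFE-3 RIP on the log2 scale (SE), and they differed by -0.74 (limma adjusted p = 0.0431), with 3 of 3 IFE-1 RIP libraries below all IFE-3 RIP libraries. After each RIP was set against its tag control, the log2 difference was -1.32 (limma adjusted p = 0.0437). In the same fit of all 15 libraries, the direct difference between the RIPs was -0.73 and not called (limma adjusted p = 0.163). The value of -1.32 also includes the difference between the controls. Over total RNA, that fit had mKate control RIP at 0.089 and GFP control RIP at -0.50. The GFP control RIP libraries entering the value of -1.32 lay between 14.1 and 27.7 scaled TPM, and their part in the call was not tested.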

How the results depend on the processing

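Of 11 calls of Argonaute mRNAs in 7 comparisons, 97 of 141 combinations of call and other setting kept the call, 44 lost it and 0 changed sign. With TPM as deposited the median of all genes moved to 0.21, 0.27, -0.01, -0.20, -0.29, 0.42 and 0.55 for IFE-1 RIP and IFE-3 RIP over total RNA, IFE-1 RIP over IFE-3 RIP, each RIP over its control (mKate, then GFP) and each control over total RNA (mKate, then GFP). Of all calls 88.1%, 94.2%, 7.32%, 43.9%, 50.0%, 93.9% and 96.3% were then higher, against 40.4%, 49.8%, 8.15%, 65.5%, 72.7%, 42.7% and 44.3% with scaled libraries. The number of mRNAs called was then 2 for IFE-1 RIP, 6 for IFE-3 RIP, 4 for mKate control RIP and 1 for GFP control RIP over total RNA, where 10.6%, 22.8%, 36.3% and 17.0% of all genes were called. The fit of all 15 libraries, added after the data were seen, called 0 for IFE-1 RIP and 0 for IFE-3 RIP over total RNA, 0 between the IFE RIPs and 0 for mKate control RIP over total RNA (5, 3, 3 and 4 at an unadjusted p under 0.05 by limma), 1 for IFE-3 RIP over GFP control RIP and 3 for GFP control RIP over total RNA, with 4.32% and 6.43% of all genes called in the last 2. With the replicate block the number was 8 for IFE-1 RIP over total RNA, where prg-1, ergo-1 and hrde-1 were the 3 added and 17.0% of all genes were called, 4 for IFE-3 RIP over total RNA, where rde-1 was the 1 added (limma adjusted p = 0.0451) and 18.0% of all genes were called, 2 between the IFE RIPs, 2 for IFE-1 RIP over mKate control RIP and 0 for mKate control RIP over total RNA (5 at an unadjusted p under 0.05 by limma). Between the IFE RIPs the number was 0 with a pseudocount of 5, 0 without a filter and 0 with only the 6 libraries compared. At an unadjusted p under 0.05 by limma there were 4, 5 and 4, and these fits called 0.868%, 0.0908% and 0.0171% of all genes. Without a filter the number for mKate control RIP over total RNA was 0, where 2.64% of all genes were called. By limma 6 of the mRNAs had an unadjusted p under 0.05 there. For GFP control RIP over total RNA it was 1 with a pseudocount of 5, where 0.818% of all genes were called. The cause of these changes was not tested. Of values that kept their sign, 38 of 51 moved by over 1.5 times with TPM as deposited, 24 of 69 with a pseudocount of 5, 4 of 70 with 0.1 and 84 of 406 with 1 library left out.

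With 1 library left out the number ranged from 3 to 5 for IFE-1 RIP over total RNA, 3 to 3 for IFE-3 RIP over total RNA, 0 to 3 between the IFE RIPs, 0 to 1 for IFE-1 RIP and 0 to 1 for IFE-3 RIP over its control, 0 to 5 for mKate control RIP and 0 to 3 for GFP control RIP over total RNA. Shares of all genes called in the same fits are in brackets. In the first it was 3 without IFE-1 RIP replicate 1 or 3 or total RNA replicate 1 (6.63%, 6.28% and 4.32%). Between the IFE RIPs it was 3 without IFE-3 RIP replicate 3 (7.61%). Without mKate control RIP replicate 3 it was 1 over that control (12.7%) and 5 for that control over total RNA (25.3%). Without GFP control RIP replicate 2 it was 1 over that control (2.21%) and 3 for that control over total RNA (4.66%). Over all settings the number of all genes called ranged from 235 to 2053, 253 to 2758, 2 to 897, 0 to 1554, 0 to 618, 2 to 4166 and 19 to 1975 in the order of comparisons above, against 1232, 1356, 184, 58, 11, 1629 and 97. By limma 0 genes were called in IFE-1 RIP over mKate control RIP without a filter, where 4083 had an unadjusted p under 0.05. In IFE-3 RIP over GFP control RIP 0 were called without IFE-3 RIP replicate 1, where 908 had an unadjusted p under 0.05 by limma. Further fits of both comparisons with 1 library left out also called 0 genes.

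Of the 59 results not called, 21 changed sign in some setting. Without scaling, alg-1 was at 0.26 in IFE-1 RIP, and prg-1, alg-2 and wago-1 were at 0.18, 0.092 and 0.21 in IFE-3 RIP over total RNA. Then csr-1 was at -0.0056 between the IFE RIPs and alg-2 at -0.16 over mKate control RIP. Over GFP control RIP csr-1, alg-2, rde-1 and ergo-1 were at -0.25, -0.24, -0.26 and -0.022. For mKate control RIP over total RNA prg-1, csr-1, wago-1 and alg-4 were at 0.44, 0.036, 0.18 and 0.16, and for GFP control RIP prg-1, alg-2, ergo-1, hrde-1 and wago-1 were at 0.051, 0.34, 0.54, 0.19 and 0.0079. For alg-1 in IFE-1 RIP the value was 0.00036 with a pseudocount of 5, 0.011 with only the 6 libraries, 0.0020 with all 15, and -0.078 to 0.051 with 1 library left out. Leaving out 1 library also changed the sign of csr-1 (-0.016 to 0.077) and alg-3 (-0.094 to 0.044) between the IFE RIPs, of alg-2 (-0.069 to 0.19) and alg-3 (-0.18 to 0.032) over mKate control RIP, and of csr-1 (-0.054 to 0.41), alg-2 (-0.20 to 0.33) and rde-1 (-0.17 to 0.24) over GFP control RIP. The same held for prg-1 in mKate control RIP (-0.20 to 0.020) and ergo-1 in GFP control RIP (-0.28 to 0.19) over total RNA.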
